A study of Mus musculus with 4 samples.

Results

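Of 6834 places in the mouse genome where Isl1 peaks of both chromatin immunoprecipitation (ChIP-seq) replicates met, 747 lay in gene deserts, more than 300 kb from any protein-coding gene. They were chosen by the peak positions of the replicates and by distance. Peaks of replicates 1 and 2 that overlapped by at least 1 bp were joined into a shared region, whose centre is the midpoint of the longest overlap. A region was kept where that centre fell outside every RefSeq protein-coding gene and more than 300 kb from the nearest gene end. The presence of a peak in both lists and the distance are therefore properties of the choice. The 747 regions made up 10.9% of all shared regions (Wilson 95% interval 10.2 to 11.7%).

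Embryos of the CD1 strain, wild type in genotype and at stage E14.5 (days of gestation), gave the tubercle chromatin, and no gene was altered and no agent was given according to the labels. ChIP with an anti-ISL1 rabbit monoclonal antibody was made in 2 samples, and 2 input samples (sheared chromatin that was not immunoprecipitated) went with them. Each ChIP sample had 1 list of peaks in mm10 with the authors' score, and the inputs were not analysed here. Sequencing depth is unknown from the lists. The labels name neither the number of embryos nor whether the replicates came from separate dissections. The series holds no expression values against which the tissue could be checked.

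The genital tubercle is the embryonic bud of the penis and clitoris. Isl1 is a transcription factor with LIM domains and a homeodomain, made in the tubercle mesenchyme, and it is also known from motor neurons, the heart, pancreatic islets and the early hindlimb. Homeodomains commonly recognise short sequences with a TAAT core. Gene deserts are long stretches without protein-coding genes. Many of them flank developmental regulators, and some hold enhancers that act on a gene over very long distances. A peak alone does not show which gene, if any, a region acts on, so genes are named here only as the neighbours of a desert.

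Desert ground rarely has annotated sequence, but 6 of the 747 regions overlapped a RefSeq promoter window (250 bases before to 50 after a transcript start), and all 6 windows belonged to long non-coding RNA (lncRNA) genes. They were 1.01% of the 596 promoter windows of desert ground. The 4 windows with the longest stretch under a region are shown, because they are where the DNA under a peak can be read. Sequences are RefSeq's for GRCm38.p6 (mm10 coordinates), cut to the overlap and written 5′ to 3′ on the strand of the gene. Capitals mark TAAT or its reverse complement ATTA, alone or joined as TAATTA.
Gm46834, chr3:39712978-39713199, plus strand: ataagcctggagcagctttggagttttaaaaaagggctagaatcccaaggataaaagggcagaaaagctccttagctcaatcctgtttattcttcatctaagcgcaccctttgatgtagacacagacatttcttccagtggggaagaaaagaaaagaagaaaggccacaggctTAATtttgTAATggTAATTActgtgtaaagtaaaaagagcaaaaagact
Gm33809, chr3:143645585-143645828, plus strand: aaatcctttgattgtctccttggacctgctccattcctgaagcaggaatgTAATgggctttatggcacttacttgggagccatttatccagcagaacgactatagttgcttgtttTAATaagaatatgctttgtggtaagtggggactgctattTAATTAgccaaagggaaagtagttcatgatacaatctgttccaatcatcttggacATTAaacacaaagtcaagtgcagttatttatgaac
Gm11228, chr4:71131120-71131383, minus strand: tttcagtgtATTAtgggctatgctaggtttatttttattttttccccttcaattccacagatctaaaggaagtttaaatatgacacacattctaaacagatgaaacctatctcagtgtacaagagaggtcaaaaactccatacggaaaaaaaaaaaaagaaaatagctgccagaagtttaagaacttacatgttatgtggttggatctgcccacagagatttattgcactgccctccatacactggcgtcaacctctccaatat
Gm30063, chr3:39460604-39460814, plus strand: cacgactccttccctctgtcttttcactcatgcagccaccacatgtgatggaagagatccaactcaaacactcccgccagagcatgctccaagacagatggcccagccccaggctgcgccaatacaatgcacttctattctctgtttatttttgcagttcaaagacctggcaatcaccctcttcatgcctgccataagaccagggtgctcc

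The stretch at Gm46834 (222 of the region's 225 bases) carried 4 TAAT cores on either strand, with its 1 TAATTA counted on both strands, at 38.7% GC. Its region scored 76 in replicate 1 and 144 in replicate 2, with the centre 55 bases before the start. At Gm33809, 244 of 486 bases were covered, with 5 TAAT cores, again with 1 TAATTA counted on both strands, and the region scored 142 and 148. Gm11228 had the strongest region of the 6, 265 and 305, yet a single TAAT core in the 264 of 736 bases that the window reached. The whole region at Gm30063 (211 bases) lay in the window and held no TAAT core, at 51.7% GC, with scores of 26 and 75. The remaining overlaps covered 18 bases at Gm31344 (scores 49 and 28) and 58 bases at Gm29835 (156 and 122).

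Short motifs in these windows were common in deserts generally. The palindromic homeodomain word TAATTA was in 2 of the 6 whole windows (Gm46834 and Gm33809), in 11.1% of the 596 desert windows and in 5.29% of all 32851 promoter windows, and it contains TAAT on both strands. TAATGG was in the same 2 windows, in 13.6% of desert windows and in 7.73% of all windows. CTAATG was in none of the 6 and in 12.6% of desert windows. The words TAATTG and TAATCC were likewise in none, against 13.8% and 9.23% of desert windows. TAAT itself was in all 6 whole windows and in 85.2% of desert windows, against 58.0% of all windows, so its presence separates little. Words without TAAT were searched too, and some were found as often as TAATTA or more often. TGTGGT was in 3 of the 6 whole windows and in 19.5% of desert windows. GGAATG and CATCTG were in 2 of the 6 each, and every other word without TAAT was in 1 or none. Both strands were searched for every word. These letters describe 6 windows and say nothing of the other regions, for which no sequence was used.

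Deserts held fewer Isl1 regions than the genome on average. They covered 378 Mb, 14.2% of the ground counted, and held 1.98 shared regions per Mb (exact Poisson 95% interval 1.84 to 2.12) against 2.57 over all ground. The rest of the genome was far from even: there were 11.8 regions per Mb within 1 kb of a gene end, 2.55 inside genes, 1.94 (1.84 to 2.03) at 1 to 100 kb and 2.67 (2.51 to 2.84) at 100 to 300 kb. Deserts thus resembled the ground at 1 to 100 kb, with overlapping intervals, and lay under the 100 to 300 kb class. The peaks of replicates 1 and 2 alone gave 2.48 and 2.90 per Mb in deserts, close to the 2.55 and 2.99 at 1 to 100 kb and under the 3.43 and 4.21 at 100 to 300 kb. Assembly gaps and repeats that reads cannot be placed in were not taken out of the ground, and intervals cover counting error only. No test was made of any difference given here, since peak and position chose the regions.

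Within deserts, regions thinned out with distance. There were 252 regions at 300 to 400 kb (2.67 per Mb, interval 2.35 to 3.02), 168 at 400 to 500 kb (2.57) and 198 at 500 to 750 kb (1.96, 1.70 to 2.26). Beyond that, 63 regions lay at 750 to 1000 kb (1.27 per Mb, 0.973 to 1.62), 50 at 1000 to 1500 kb (0.988) and 16 beyond 1500 kb (0.931, 0.532 to 1.51). The peak lists showed the decline with small exceptions: replicate 1 had 3.18, 3.37, 2.45, 1.63, 1.28 and 1.34 peaks per Mb in the 6 bands, so that the second and the last stood above the one before. Replicate 2 had 3.95, 3.67, 2.93, 1.85, 1.44 and 1.34. The far bands come only from large deserts, so the 76 deserts with ground beyond 1 Mb were also read on their own. There the density went from 2.04 per Mb (1.39 to 2.89) at 300 to 400 kb through 1.38, 1.26, 1.13 and 0.988 to 0.931 in the last band, a smaller fall with neighbouring intervals that overlap.

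**Figure D1:**
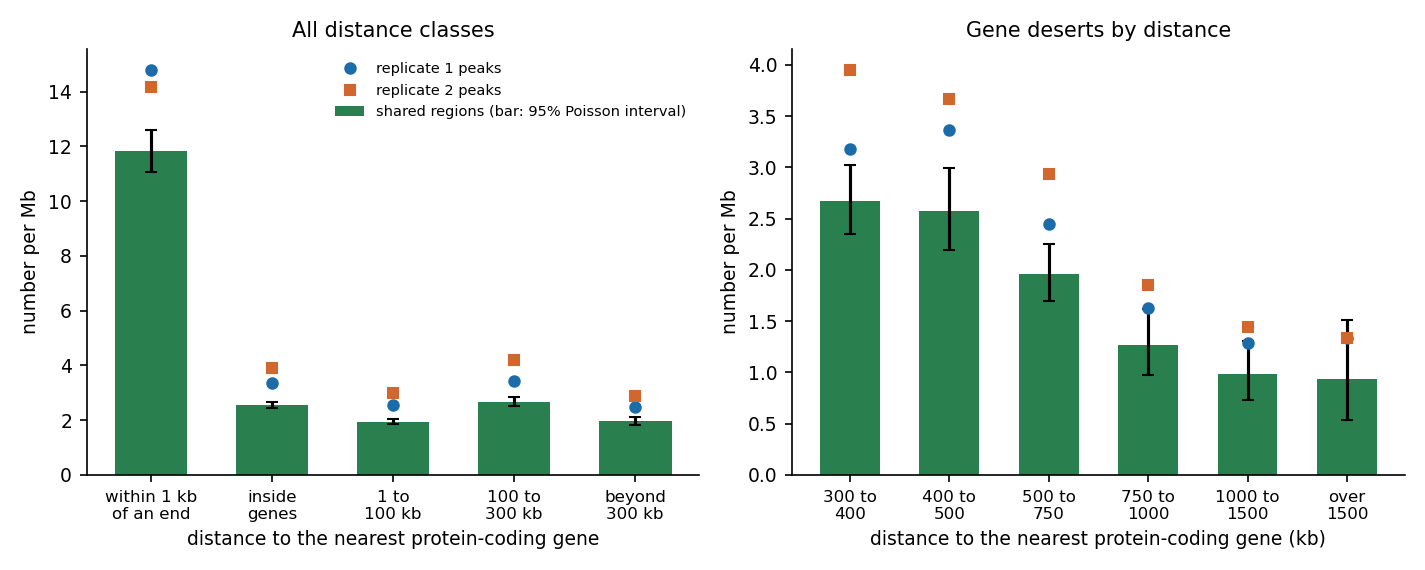
Shared regions per Mb of ground (green bars, with exact Poisson 95% intervals) and peaks per Mb of replicate 1 (blue circles) and replicate 2 (orange squares), left by distance class and right by distance band within gene deserts. Gene ends stand at 11.8 regions per Mb and deserts at 1.98, and within deserts the bars go from 2.67 to 0.931.

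Desert regions had scores close to those of other regions away from gene ends. The median score of the 747 regions was 93 in replicate 1 (quartiles 61 and 147, range 21 to 817) and 117 in replicate 2 (quartiles 75 and 194, range 22 to 1090). Regions inside genes, at 1 to 100 kb and at 100 to 300 kb had medians of 101.5, 95 and 93 in replicate 1 and of 118 each in replicate 2, while regions at gene ends had 253 and 239. A score of 200 or more was reached by 115 desert regions in replicate 1 (15.4%, 13.0 to 18.2%) and by 174 in replicate 2 (23.3%, 20.4 to 26.5%), against 60.6% and 57.0% at gene ends. The 16 regions beyond 1500 kb had medians of 144.5 and 164.5, but they came from 7 of the 28 deserts with such ground. Among these was the desert between Pcdh20 and Pcdh9, whose 7 regions, at a median distance of 2185 kb, had medians of 174 and 247. The medians of so few deserts do not describe far ground in general. The score is the authors' own, and no source used here says that it can be compared between libraries. Values of both replicates are therefore printed for each region, and an order by the lower of them may depend more on 1 library.

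The highest-scoring peak of each desert region had a median width of 201 bp in replicate 1 and 238 bp in replicate 2. Over all shared regions these medians were 194 and 218 bp, and at 100 to 300 kb they were 200 and 233.5 bp. The joined regions had a median span of 269 bp, against 251 bp over all shared regions. The overlaps had a median of 175 bp, and 20 regions joined more than 2 peaks. Spearman's rho between the 2 scores of a region was 0.682 over the 747 regions, given as a description because every region had to pass the authors' threshold in both lists. That value was 0.662 at 100 to 300 kb and 0.882 at gene ends, where scores spread more widely. Replicate 2 had the higher deposited score in 493 desert regions (66.0%, 62.5 to 69.3%). The share was 63.9% (61.0 to 66.8%) at 100 to 300 kb, 61.7% at 1 to 100 kb and 61.8% inside genes. It was 35.1% at gene ends and 58.9% over all shared regions. The 2 scores lay within 2-fold of each other in 598 (80.1%), about the share over all shared regions (80.5%).

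**Figure D2:**
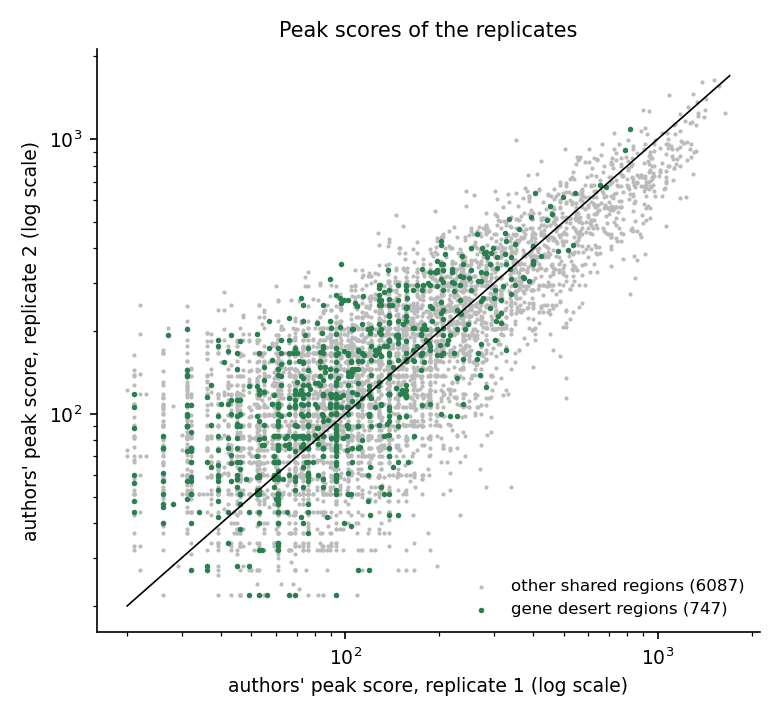
The authors' peak score of each shared region in replicate 1 (x) against replicate 2 (y), both on log scales, with the 747 desert regions in green, the 6087 other shared regions in grey and the line of equal scores in black. Desert regions fill the low and middle range, with medians of 93 and 117, and a single one passes 1000 in replicate 2.

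Peaks in deserts recurred between replicates about as often as peaks elsewhere. In replicate 1, 764 of 936 desert peaks overlapped a replicate 2 peak (81.6%, 79.0 to 84.0%), against 78.1% of peaks outside deserts and 78.5% of all its peaks. In replicate 2 the share was 751 of 1097 (68.5%, 65.6 to 71.1%), against 68.2% outside deserts and 68.3% of all its peaks. The share rose with the score: in replicate 1 it was 61.7% (54.8 to 68.3%) for desert peaks of score 20 to 49, 77.4% (73.0 to 81.3%) at 50 to 99, 96.2% (92.9 to 98.0%) at 100 to 199 and 116 of 116 at 200 or more. Outside deserts those shares were 55.8%, 69.4% (67.7 to 71.0%), 89.9% (88.5 to 91.1%) and 99.5%. At scores of 50 to 99 and 100 to 199 the replicate 1 shares were thus higher in deserts, with intervals apart. At 20 to 49 the desert interval held the share outside, and at 200 or more nearly all peaks were shared in both groups. In replicate 2 the desert shares were 44.0%, 52.5%, 85.8% and 99.4%, within their intervals of the 39.1%, 50.1%, 83.1% and 99.1% found elsewhere. The 172 desert peaks of replicate 1 and 346 of replicate 2 without a partner had median scores of 53 and 63 and reached at most 170 and 225.

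**Figure D3:**
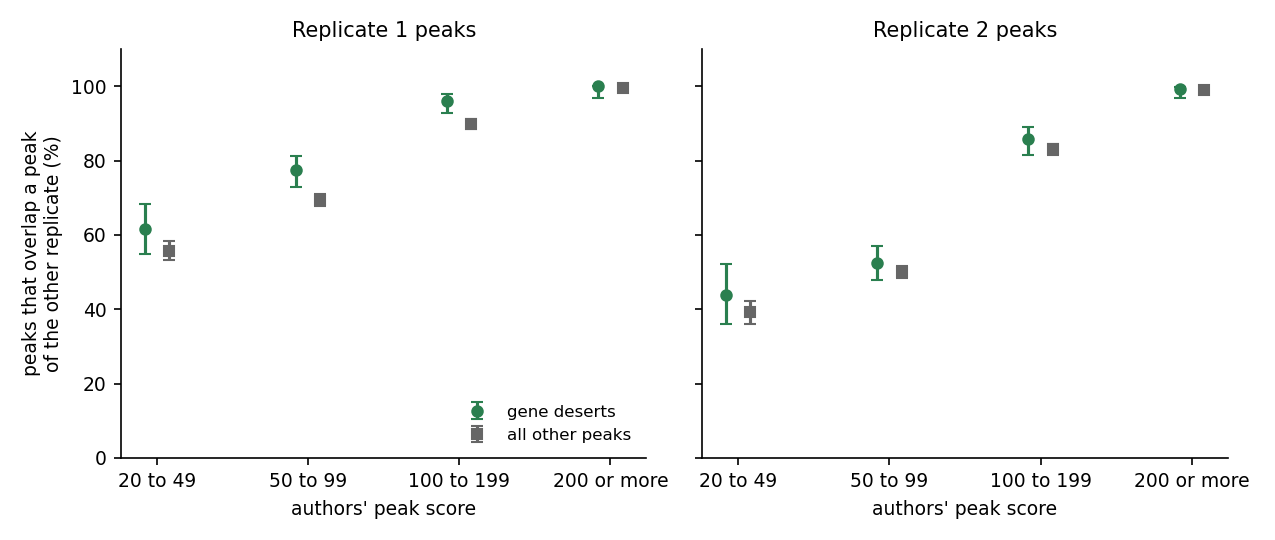
Share of peaks that overlap a peak of the other replicate (y, percent) by the authors' peak score (x), for desert peaks (green circles) and all other peaks (grey squares), with Wilson 95% intervals, for replicate 1 (left) and replicate 2 (right). Both groups climb to near 100%, and desert peaks of replicate 1 at scores of 100 to 199 stand at 96.2% against 89.9%.

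The regions lay in a minority of the deserts. In all, 576 stretches had ground beyond 300 kb from any protein-coding gene, 571 of them between 2 such genes and 5 at a chromosome end, and 261 of the 576 (45.3%, 41.3 to 49.4%) held at least 1 region. The 315 without a region were smaller, with a median of 213 kb of such ground against 661 kb. There were 107 deserts with 1 region and 50 with 2, while 47 deserts with 5 or more held 345 regions (46.2%). The 10 fullest deserts held 122 regions (16.3%) on 3.85% of the desert ground. They were picked by their number of regions, so a share above that of their ground follows from the choice. The Poisson intervals given below for single full deserts do not allow for that choice. Whether the regions were more gathered than ground alone would give was not tested. Size alone ordered the deserts loosely, with a Spearman correlation of 0.478 between ground and regions over the 576 deserts, which are of unequal length and share no error model.

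Some of the largest deserts were empty. Of 114 deserts with more than 1 Mb of ground, 22 had no shared region, and the 3 largest of these had no peak in either list. They lay between Lrrc4c and Iftap on chromosome 2 (3329 kb of ground), between Dsel and Cntnap5a on chromosome 1 (3220 kb) and between Diaph2 and Pcdh19 on the X chromosome (2517 kb). Lrrc4c, Cntnap5a and Pcdh19 encode adhesion proteins of neurons. A signal under the authors' threshold would not be listed, and whether reads can be placed in these stretches was not tested.

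The desert with most regions lay on chromosome 3 between Fat4, which encodes a giant cadherin of planar cell polarity, and Intu, a planar polarity effector needed for cilia. It had 18 regions on 919 kb of ground (19.6 per Mb, 11.6 to 30.9) and 20 and 24 peaks in replicates 1 and 2. Scores ran from 26 to 359 with a median of 103 in replicate 1, and from 47 to 471 with a median of 117.5 in replicate 2. The strongest, at chr3:39747866-39748230, scored 359 and 471 and lay 736 kb from Fat4. Its nearest partners at chr3:39719087-39719393 (247 and 213) and chr3:39725609-39726207 (282 and 125) stood within a run of 4 regions over 34.9 kb, whose first region is the Gm46834 window printed above. A run of 6 weaker regions over 167 kb, with scores of 26 to 118 and 47 to 118, starts at the Gm30063 window.

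The desert between Slc10a2, a bile acid transporter gene, and Efnb2 on chromosome 8 was longer (2912 kb) and held 17 regions (5.84 per Mb, 3.40 to 9.35). Efnb2 encodes ephrin-B2, a membrane ligand of Eph receptors with a known role in closure of the urethra, and 12 of the 17 regions lay nearer to it than to Slc10a2. The strongest, chr8:7012111-7012596, scored 516 and 396 at 1605 kb from Efnb2. On chromosome 18, the desert from Zfp608 to Gramd3 had 17 regions on 795 kb (21.4 per Mb, 12.5 to 34.2), the densest of the 10. None of them was very strong, since the highest scores were 220 in replicate 1 and 352 in replicate 2.

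The next deserts in order of number had between 8 and 13 regions. Between Ttll7 and Adgrl2, which encodes the adhesion receptor latrophilin-2, there were 13 regions (10.6 per Mb), with 6 of them in a run of 55.9 kb. Between Gm40892 and Flrt2, an adhesion and guidance protein gene, there were 12 regions (5.46 per Mb), 9 of them nearer to Flrt2, and the strongest scored 339 and 310. Between Igfbp3, a carrier of insulin-like growth factors, and Tns3, which encodes an actin-linking adaptor, 11 regions stood on 616 kb (17.9 per Mb, 8.91 to 31.9). Their scores ran from 36 to 305 in replicate 1 and from 47 to 340 in replicate 2. The Eph receptor genes Epha7 and Epha4 each bordered a desert with 9 regions, of 2396 kb towards Map3k7 (3.76 per Mb) and of 1208 kb towards Slc4a3 (7.45 per Mb), with best scores of 398 and 407 and of 253 and 333. The last of the 10, between Eno1b and Dtwd2 on chromosome 18, had 8 regions (7.64 per Mb), the strongest at 292 and 385.

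**Figure D4:**
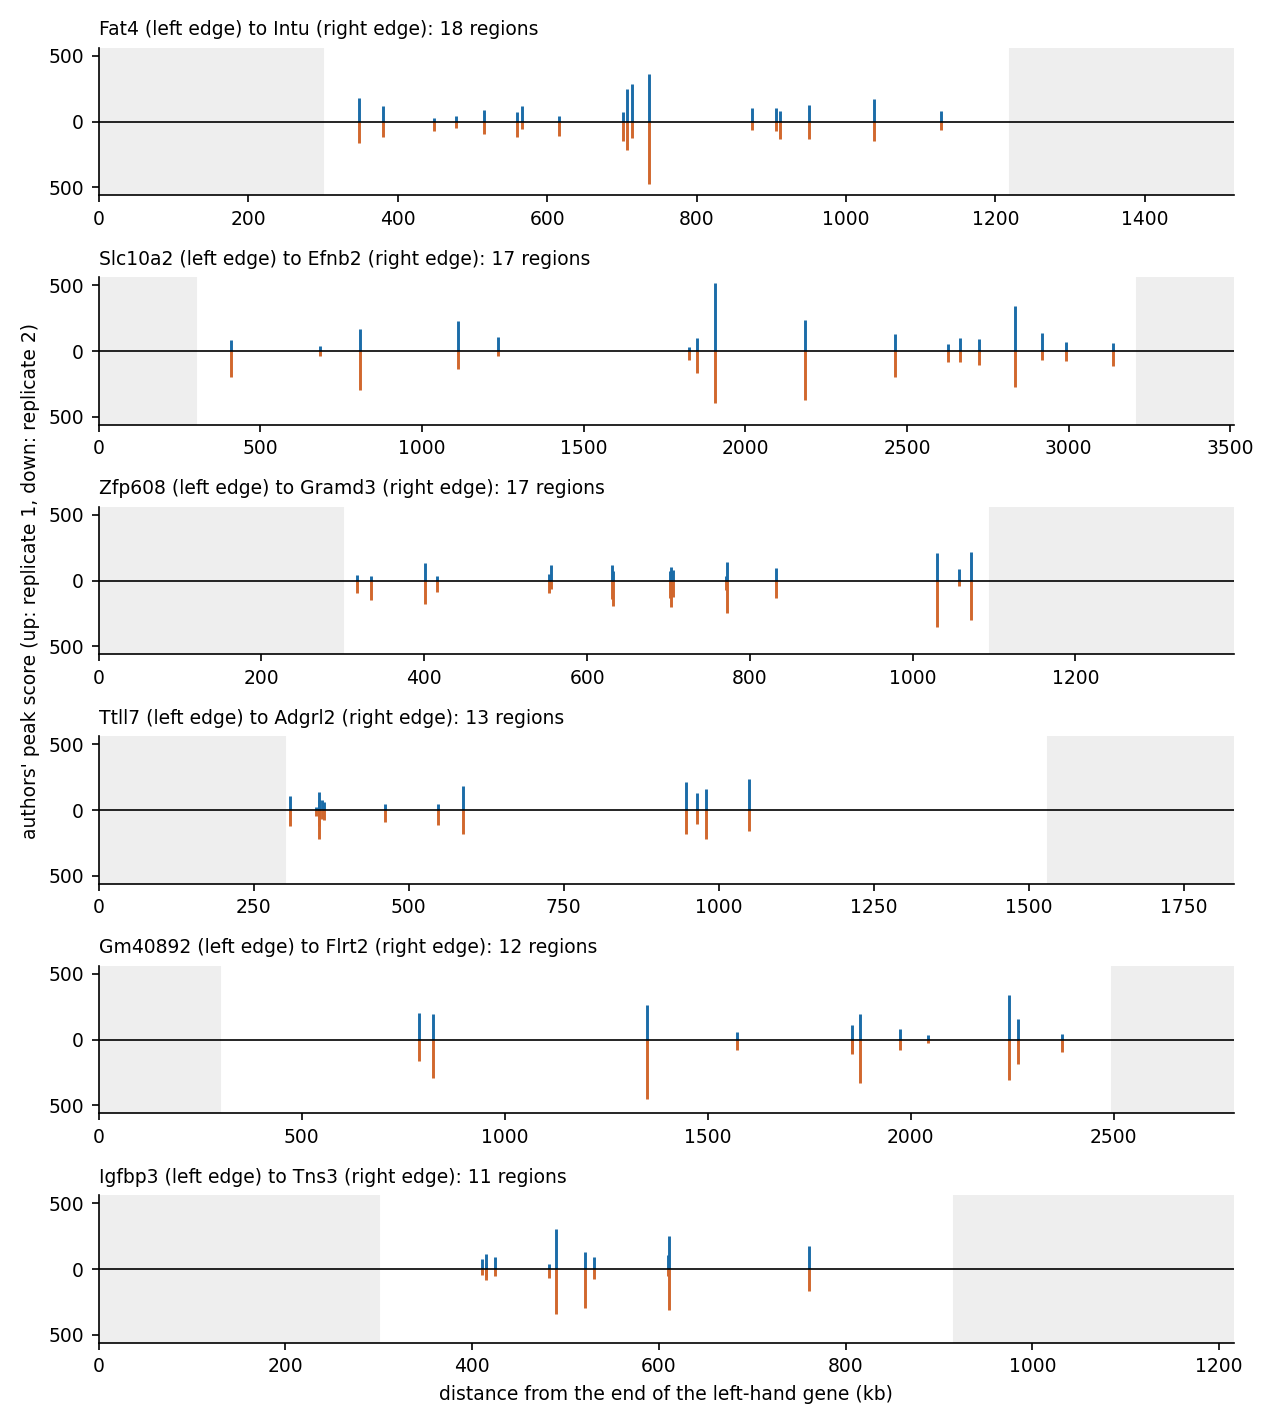
Desert regions of the 6 deserts with most of them, by distance from the end of the left-hand gene in kb (x), with the authors' peak score of replicate 1 drawn upwards (blue) and of replicate 2 downwards (orange). Grey marks ground within 300 kb of either gene, where shared regions are not drawn. The 18 regions between Fat4 and Intu spread over most of the open ground with the tallest line at 359 and 471, while those between Zfp608 and Gramd3 stay at or under 352.

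The strongest region of all lay between the neuronal adhesion genes Slitrk1 and Slitrk6, at chr14:110078215-110079147, 669 kb from Slitrk6. It scored 817 in replicate 1 and 1090 in replicate 2, was 933 bp wide and overlapped over 870 bp. The same desert had 8 regions, among them chr14:110276104-110276633 with 479 and 393 and chr14:110214823-110215200 with 290 and 352, while the other 5 stayed between 21 and 128 in replicate 1. The median there was 100.5 and 167.5, so a few strong regions stood among ordinary ones.

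The second strongest, chr8:50240385-50240768, scored 784 and 913, lay 718 kb from Tenm3, which encodes a teneurin adhesion protein, and fell inside the lncRNA gene 1700019L22Rik. The third, chr2:8315571-8316081, scored 681 and 668 at 920 kb from Celf2, an RNA-binding protein gene, in the desert whose other border is Gata3, a zinc finger transcription factor gene. That desert had only 1 further region, with 316 and 233 at 616 kb from Gata3. The fourth, chr12:9997105-9998232, scored 656 and 683 at 416 kb from Osr1 and 373 kb from Nt5c1b. Osr1 encodes a zinc finger transcription factor of urogenital and limb mesenchyme. The region stood in a tight group, with neighbours of 64 and 82, 105 and 204, and 110 and 75 within 11.9 kb. It is the one of the 10 strongest regions that was lost when the peaks had to overlap over 50% of each other's length.

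The remaining 6 of the 10 strongest had scores between 442 and 542 in replicate 1 and between 412 and 635 in replicate 2. Of these, 2 regions stood in the desert between Gja1, the gap junction gene connexin 43, and Hsf2, at chr10:57062407-57062864 (459 and 534) and chr10:57011838-57012421 (535 and 412), as the ends of a run of 4 regions over 50.5 kb. Others were chr10:35328498-35329217 between Amd2 and Frk (542 and 635), chr13:26024337-26025049 between Hdgfl1 and Nrsn1 (499 and 618) and chr13:106142101-106142645 between Ipo11 and the serotonin receptor gene Htr1a (442 and 509). The last, on chromosome 18, scored 451 and 571 at 923 kb from the N-cadherin gene Cdh2. The 10 strongest regions lay in 9 deserts, and only 1 of those deserts was among the 10 fullest.

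The median distance of the 747 regions was 472 kb, with 327 regions beyond 500 kb, 66 beyond 1 Mb and 7 beyond 2 Mb. The 3 farthest lay on chromosome 14 between the protocadherin genes Pcdh20 and Pcdh9, at chr14:90725089-90725378 (2254 kb, scores 174 and 165), chr14:90708843-90709040 (2238 kb, 115 and 164) and chr14:90790271-90790453 (2223 kb, 85 and 70). The next 2, both 2202 kb from a gene, stood between Celf4 and Pik3c3 on chromosome 18 with scores of 61 and 47 and of 89 and 137. At the limit itself, the 3 regions just inside lay at 300.024, 300.572 and 300.934 kb, with scores of 156 and 98, 54 and 77, and 150 and 118. The 3 just outside lay at 299.905, 299.572 and 298.623 kb, with 42 and 78, 147 and 302, and 398 and 283.

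Desert regions were less crowded than those of the class next to them. The nearest other shared region was a median of 62.5 kb away, against 41.9 kb at 100 to 300 kb. Within 50 kb, 346 of 747 (46.3%, 42.8 to 49.9%) had another shared region, against 53.2% (50.2 to 56.3%) at 100 to 300 kb and 47.9% over all regions. When only desert regions were joined, at steps of up to 50 kb, 412 stood alone, 168 formed 84 pairs, and 47 longer runs held the rest. The longest runs, of 6 regions, were the 2 described above (Fat4 to Intu and Ttll7 to Adgrl2) and 1 on chromosome 8 between Frg1 and Triml1, which spanned 69.9 kb. Its scores ran from 45 to 186 in replicate 1 and from 47 to 328 in replicate 2, and all 6 lay inside the lncRNA gene 2810404M03Rik. A run of 5 stood between Usp25 and Cxadr on chromosome 16.

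The genes that border deserts were read through 15 lists of known function. Of all 1023 protein-coding genes next to a desert, 489 (47.8%) had at least 1 region in it. A gene here means a neighbour on either side, so its regions can lie nearer to the other gene. A desert counts for both its genes, and wide deserts have more room for a region. For that reason densities per Mb of the deserts of a list are given beside the counts, against 1.98 over all deserts. No test was made over the lists.

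Transcription factors of tubercle and limb mesenchyme were often next to a desert with regions. Of the 72 genes, 22 bordered a desert and 16 of these (72.7%) had a region in it, and their deserts held 59 regions on 14.7 Mb, 4.01 per Mb (3.05 to 5.18). Zeb2, a regulator of mesenchymal state, had 8 regions over the 3097 kb towards Acvr2a, the strongest at chr2:46946149-46946636 with 386 and 305. Tbx3, a T-box gene of tubercle, limb and mammary development, had 7 regions on only 305 kb towards Med13l (22.9 per Mb, 9.22 to 47.3). Of these 7, 3 lay nearer to Tbx3 than to Med13l. All 7 peaks of each list there were shared, with scores from 72 to 339 and from 75 to 373, and 23 shared regions stood in the whole gap. Meis1, a homeobox partner of Hox proteins, had 7 regions over its 2 sides, led by chr11:18450996-18451669 (197 and 333), and Bcl11a, a zinc finger gene, had 6, led by 128 and 294.

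Smaller counts in the list included Isl1 itself, which had 2 desert regions on the side towards Itga1, at 473 kb (93 and 86) and 302 kb (61 and 100), and 4 shared regions in the whole gap. Tshz1 and Nr2f1 had 4 regions each, Sall1 had 3 and Ebf1 had 2. Genes with a desert but no region in it were Bcl11b, Hand2, Meis2, Sall3, Tshz2 and Zfhx4. The deserts of Sall3 (805 kb) and Zfhx4 (958 kb) were large and had 1 peak between them in each list, unshared.

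Sox genes, transcription factors with HMG boxes, were few: 5 of the 6 next to a desert had a region, 13 regions on 1.94 Mb (6.68 per Mb, 3.56 to 11.4). Sox9, a gene of cartilage and gonad, had 5, the strongest at chr11:112125370-112125647 (178 and 210, 657 kb away) and chr11:112164026-112164285 (174 and 194). Sox2 had 4 (best 156 and 294), Sox11 had 2 (133 and 277), and Sox6 and Sox4 had 1 each. Nearer to the named gene than to the other neighbour were 2 of the 5 at Sox9, 1 of the 4 at Sox2 and 1 of the 2 at Sox11. The region at Sox6 was nearer to Sox6, and that at Sox4 was nearer to Prl5a1. Sox5 had none on 19.9 kb of ground.

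Among signalling genes, those of the Bmp and Tgf-beta pathway were next to 10 deserts, more than the Fgf, Wnt or Hedgehog genes. Of 9 such genes 6 had a region, 19 regions in all (3.59 per Mb, 2.16 to 5.61). The ligand gene Bmp4 had 3 on 125 kb of ground, led by chr14:46032029-46032268 (206 and 238, 351 kb away), with 138 and 164 and 54 and 32 for the others. Of these 3, 1 lay nearer to Bmp4 than to Ddhd1. The ligand genes Inhba, Gdf6 and Bmp2 had 1 each. The receptor gene Acvr2a shared the 8 regions of Zeb2, and Id2, an inhibitor of helix-loop-helix factors downstream of Bmp, had 5 (best 147 and 189). The inhibitor genes Bambi and Bmper had none, as had Id4.

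Among Fgf genes, the ligand Fgf9 had 5 regions on 420 kb, and the strongest, chr14:58499242-58499863, scored 405 and 634 at 387 kb. Fgf12 and Fgf20 had none. Of the Wnt genes, the receptor Fzd8 had 3 regions, none nearer to it than to Wac on the far side, and the Wnt enhancer gene Rspo3 had none on 60.1 kb. The Hedgehog genes next to a desert were the ligand Shh and the transcription factor Gli3, with no peak in either list on 126 and 226 kb. The upper Poisson bound on so little ground is 10.5 per Mb. The mineralocorticoid receptor gene Nr3c2 had none either.

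Genes of the guidance and adhesion lists bordered 6 of the 10 fullest deserts, and 21 and 59 of all 576, the latter with 91.6 of the 378 Mb of ground. Of 17 axon guidance genes 10 had a region, 61 regions in all at 3.10 per Mb (2.38 to 3.99), led by Efnb2 with 17, Epha7 with 13 over both sides, Epha4 with 9 and the secreted guidance gene Slit2 with 8 (best 232 and 294). Epha6 had no region on 1522 kb and no peak in either list. Of 42 cadherin and synaptic adhesion genes 29 (69.0%) had a region, but their deserts were very large, so the 122 regions on 91.6 Mb came to 1.33 per Mb (1.11 to 1.59), under the 1.98 of all deserts. Flrt2 had 19, Adgrl2 17, and Slitrk1 and Cdh11 9 each. Nearer to the named gene than to the other neighbour were 11, 7, 2 and 8 of these. Share and density thus point different ways for adhesion genes, while both are above the values of all deserts for tubercle transcription factors. The latter was not particular to them. Both were also above for the Sox, Wnt, Bmp and Tgf-beta, axon guidance, matrix, epithelial, blood and ribosomal lists, several with few deserts. For the Fgf and the motor neuron, cardiac and islet lists only the density was above, at 8.89 and 3.69 per Mb.

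Of 3 matrix and mesenchyme genes next to a desert 2 had regions, the mesenchymal cadherin gene Cdh11 with 9 (best 348 and 416) and the matrix protein gene Tnc with 6 (best 325 and 382), and Col12a1 had none. Among genes of motor neurons, heart and islets, Mef2c, a MADS-box factor of muscle, had 5 (best 113 and 166), and Nkx6-1 had none. The lists of other cell types were next to few deserts: Ptprc of blood cells had 5 regions (best 203 and 425) and Il7 had 1, Apob of liver had 2 (best 206 and 206) and Cps1 none. Of epithelial genes Sox2 had 4, as above, and Foxa2 none, and the ribosomal gene Rps24 had 1. The blood list thus had 7.52 per Mb (2.76 to 16.4) on 0.798 Mb, so a high density was not limited to lists of mesenchyme or signalling.

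**Figure D5:**
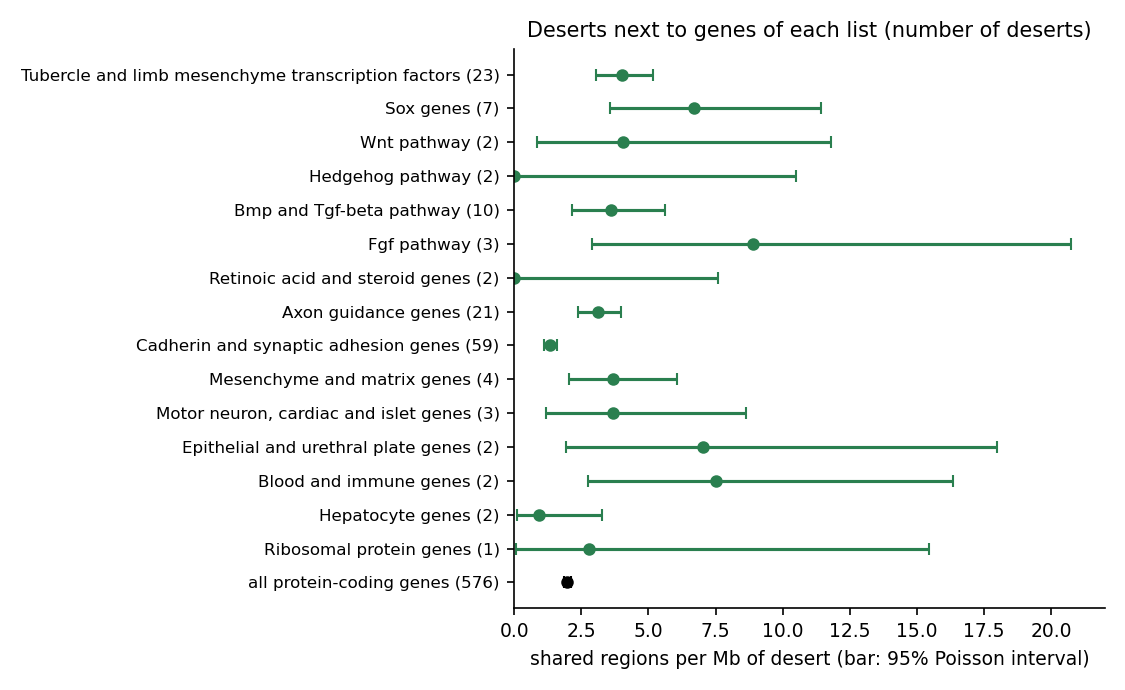
Shared regions per Mb of gene desert (x) for the deserts next to genes of each of 15 lists, with exact Poisson 95% intervals and the number of deserts in brackets, and all deserts in black. The tubercle transcription factors stand at 4.01 and the adhesion genes at 1.33, on either side of the 1.98 of all deserts, and lists with 1 to 4 deserts have wide intervals.

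Deserts without protein-coding genes still hold non-coding ones. Inside lncRNA genes lay 109 of the 747 regions (14.6%, 12.2 to 17.3%), while such genes covered 7.56% of the desert ground. The share was above that of the ground in the other intergenic classes too. It was 17.3% against 12.0% of the ground at 1 to 100 kb, a smaller difference, and 18.6% against 11.6% at 100 to 300 kb. Single peak lists gave 14.4% and 13.9% in deserts. The 109 regions fell in 79 lncRNA genes, 19 of which held 2 or more. After 2810404M03Rik with 6, the genes 1700019L22Rik, Gm30063 and Gm32647 held 4 each. Gm41733, on chromosome 18, held 3 regions within a gene of 8.63 kb, scored 70 to 106 in replicate 1 and 123 to 203 in replicate 2.

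A few microRNA genes lay within 50 kb of a desert region. Mir125b-2 at 9.62 kb, Mirlet7c-1 at 36.9 kb and Mir99a at 37.7 kb lay near the same region, chr16:77636457-77636858 (121 and 114) between Usp25 and Cxadr. The others were Mir6370 and Mir6379, near regions with 101 and 90 and with 102 and 90. When genes of every type set the limit, 22 regions stayed more than 300 kb from all of them.

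The chromosomes differed widely. Chromosome 3 held 81 regions (2.61 per Mb of its desert ground, 2.07 to 3.25) and chromosome 10 held 54 (3.38, 2.54 to 4.40), while chromosome 6 held 12 (0.710, 0.367 to 1.24). On the X chromosome there were 7 regions on 24.4 Mb (0.287 per Mb, 0.115 to 0.591), from 8 and 9 peaks. The X chromosome was sparse as a whole, with 0.638 shared regions per Mb of its full span, deserts included. By the same measure chromosome 6 had 2.44, and the autosomes ran from 1.90 on chromosome 7 to 3.73 on chromosome 18. No desert of the Y chromosome held a peak in either list. The sex of the embryos is not among the labels used here.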

How the data were processed

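Isl1 ChIP-seq peaks of 2 replicates were compared; the 2 input samples had no list here. The authors deposited, for each replicate, peak positions in mm10 with a whole-number score, from 20 upwards, its formula and threshold being not given in the sources used here. Tools in the submitters' processing notes are Trimmomatic 0.35, Bowtie2 2.2.6, MACS2 2.1.0.20150731 and bedtools, with no order or settings. Each ChIP sample had its own list.

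Shared regions, distances, runs of regions and desert ground were computed with Python 3.11.15, numpy 2.4.6 and scipy 1.17.1 from 21779 RefSeq protein-coding genes (GRCm38.p6, which has the coordinates of mm10). Gene rows ending before 3 Mb on chromosomes other than Y, which look like coordinates on scaffolds, were left out; this did not change which regions were kept. The joining of shared regions, the desert call and the ground of a single desert were checked on simulated peaks. Runs, neighbour distances, list counts and lncRNA overlaps were not part of that check. Wilson and exact Poisson 95% intervals cover counting error only. Regions share their library, so no test was made across them.

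The rule for names took the 10 regions with the highest lower score, the 5 farthest, 3 on each side of the limit, the 10 deserts with most regions and up to 4 genes of each list. Further names, such as Isl1, genes without a region and smaller counts, were chosen after their values were seen. The members and all lists were chosen with earlier results of these data known. The planned motif search in regions needs a genome of mm10 and was replaced by RefSeq promoter windows. Alternatives were stricter scores and overlap, other limits, other gene sets, and each replicate alone.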

Additional observations from a re-analysis of the deposited data

How the results depend on the processing

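Of 99 values recomputed under alternatives, 70 stayed within the tolerance, which was 1.5 times for counts and the error for other values, and 29 did not. Within the tolerance of 1.5 times the number of desert regions still ranged from 597 (scores of at least 50) to 1105 (limit of 200 kb). The number of desert regions went from 747 to 287 with a score of at least 100 in both lists, to 327 with a limit of 500 kb and to 22 when every RefSeq gene set the limit; that last group had a median replicate 2 score of 135. The density of 1.98 per Mb became 1.70 with 50% reciprocal overlap, 1.58 and 0.759 with scores of at least 50 and 100, 2.13 and 1.50 with limits of 200 and 500 kb, 0.818 with every RefSeq gene, 1.64 without Gm and Rik genes, and 2.48 to 2.90 from the peaks of 1 replicate. Chosen after seeing the data, it was 1.83 with scaffold rows kept and 2.18 without chromosomes X and Y. The share of desert peaks found in both lists fell to 68.8% (replicate 1) and 58.7% (replicate 2) with reciprocal overlap, and in replicate 2 to 62.7% and 58.5% with scores of at least 50 and 100. Regions with another within 50 kb (46.3%) were 41.9% with reciprocal overlap and 52.7 to 58.1% with 1 replicate, and 29.3% and 60.6% at 20 and 100 kb. With scores of at least 100, 162 deserts held a region, at most 7 each. Where only the nearer gene counted, the Wnt and ribosomal lists had 0 genes with a region; in 1 replicate alone the Fgf list had 1 to 2. Each stricter setting keeps fewer peaks by construction; other causes were not tested. No paired analysis was possible because the inputs had no peak list here and the regions come from both replicates. The motif alternative was not run. The authors' unknown threshold and depth limit what an empty desert shows.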
